A study of Homo sapiens with 4 samples.

Results

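The RNA described here consists of 9 messages of double-stranded RNA sensing and the interferon response, 9 of the 61543 genes counted in the series, found by their symbols. All 9 had counts, and 8 passed the filter on low counts. They were divided, from general knowledge of the pathway, into 5 constitutive messages (IRF3, IRF9, STAT2, ADAR and EIF2AK2), which cells make without interferon, and 4 interferon-induced messages (IRF7, OAS3, ISG15 and MX1), which are low until interferon acts. The sequenced RNA came from medium of HEK293T cells, which derive from human embryonic kidney. In 1 group of 2 libraries the medium is from EPN24-Cas13d, in which EPN24, a protein that forms nanocages carried out of the cell, is joined to the RNA-binding CRISPR protein Cas13d. In the other group of 2 it is from EPN24 alone. The comparison asks how attachment of Cas13d changes the cellular RNA that nanocages carry out. The labels name no interferon, virus or double-stranded RNA treatment for either group, and do not say how EPN24 was introduced or whether replicates came from separate cultures. The p-values therefore rest on how far these libraries differ within a group, and that spread may be technical.

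Long double-stranded RNA in the cytosol is a sign of viral infection. Receptors of the RIG-I family bind it and signal through the adaptor MAVS to the transcription factors IRF3 and IRF7, which switch on interferon genes. Secreted interferon acts through the kinases JAK1 and TYK2 on ISGF3, a complex that holds STAT2 and IRF9 and binds the interferon-stimulated response element (ISRE) in promoters such as those of ISG15, MX1 and OAS3. Other proteins meet the double-stranded RNA directly: EIF2AK2 (PKR) halts translation, OAS3 makes the oligoadenylate that activates RNase L, and ADAR edits adenosines in cellular duplexes so that they are not sensed.

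The division into constitutive and interferon-induced messages was made from general knowledge and not from a search for that promoter element. The stretches that hold the element are shown. ISG15, MX1 and OAS3 were named above as genes with it, so the counts below do not test the division. The promoter windows, from RefSeq build GRCh38.p14, run from 250 bases before a gene's start to 50 after it. The motif searched, on both strands, was GAAA, then any 2 bases, then GAAA. Of the 7 messages with a window, in 11 windows, 4 held the motif: 3 of 3 interferon-induced ones and 1 of 4 constitutive ones, EIF2AK2. Interferon can raise messages of the constitutive class further, EIF2AK2 among them. Among all 35116 windows of the table, 3.57% held it, a share per window and not per message. Capitals mark the motif on the strand of the gene, and overlapping matches are merged. IRF3 and IRF7 were named only.
ISG15, chr1:1013359-1013418, plus strand: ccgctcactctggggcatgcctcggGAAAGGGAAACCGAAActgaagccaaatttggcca
MX1, chr21:41420544-41420603, plus strand: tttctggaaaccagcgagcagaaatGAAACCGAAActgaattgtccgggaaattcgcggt
OAS3, chr12:112938306-112938365, plus strand: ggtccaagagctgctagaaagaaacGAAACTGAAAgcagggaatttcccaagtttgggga
EIF2AK2, chr2:37156952-37157011, minus strand: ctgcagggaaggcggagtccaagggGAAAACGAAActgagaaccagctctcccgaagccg
In ISG15 2 matches overlap in the printed stretch. OAS3 had a second match elsewhere in its window and MX1 a further one in another of its windows, neither of them printed. A match describes these letters only, and binding to them was not measured.

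Gene counts came to 5097332 and 4863449 in EPN24-Cas13d and to 1830860 and 1903492 in EPN24. For the same spike-in of synthetic ERCC RNA, EPN24-Cas13d supernatant held 58.1 ± 1.68 gene counts per ERCC count and EPN24 supernatant 3.95 ± 0.231 (SD, n = 2 each), a 14.7-fold difference. Levels below are CPM, that is, counts scaled to library size with the TMM method, which compares each message with the bulk of genes in its library. Share below means this TMM-scaled level and not the fraction of all gene counts. The effective library sizes were 4160077 and 3973217 in EPN24-Cas13d and 2242060 and 2112342 in EPN24. Total-count scaling compares fractions, and moved the median log2 fold change of tested genes from -0.96 to -1.53. A message per ERCC count compares the amount per volume of supernatant. A floor of 3 counts was 0.721 and 0.755 CPM in the EPN24-Cas13d libraries and 1.34 and 1.42 CPM in the EPN24 libraries. Such floors, and the intervals given later, allow for counting error alone. If both mates of a read pair were counted, the floors are too low and the intervals too narrow. Markers of HEK293 cells chosen for a check (VIM, NEFL, NEFM, INA, PAX2 and EYA1) had counts in every library, with summed levels of 2002 and 2002 CPM in EPN24-Cas13d and 304 and 331 CPM in EPN24; 3 were higher, 2 lower and PAX2 was not called. Blood and immune markers summed to 4.33 and 4.15 CPM in EPN24-Cas13d and to 43.5 and 40.5 CPM in EPN24; CD14 and HBA1 were at 0 throughout, and 5 of the 8 were tested, all lower. Liver markers summed to 8.89 and 5.03 CPM in EPN24-Cas13d and to 45.1 and 36.9 CPM in EPN24. The part of such reads in the values below was not tested. The libraries hold RNA of filtered HEK293T medium, so a marker sum here does not measure cells of a type.

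Among the sensing messages, those of the constitutive class included 3 of 5 that were a larger share of EPN24-Cas13d RNA, led by ADAR, whereas the interferon-induced ones went different ways. ADAR, IRF3 and STAT2 were higher (STAT2 not with total-count scaling, the stricter filter or sparse-gene density subtracted), and IRF9 and EIF2AK2 were not called. IRF7 was higher, MX1 was lower, OAS3 was not called and ISG15 had too few counts to be tested. Calls are at an adjusted p under 0.05 (edgeR quasi-likelihood fit, p-values adjusted by Benjamini and Hochberg's method over the 20476 tested genes). Of those genes 80.9% were called, 32.6% higher and 48.2% lower. With calls this frequent, a call by itself does not set a message apart from other genes. Over the 20476 genes the log2 fold change had a median of -0.96, and scaling to ERCC totals moved it to 2.38. Among the other settings used below, the stricter filter called 82.4% of the genes it tested (40.7% higher, 41.7% lower), subtraction of a sparse-gene density 70.6% (33.9% higher, 36.7% lower) and removal of the trend on GC content 69.9% (35.1% higher, 34.8% lower).

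**Figure D1:**
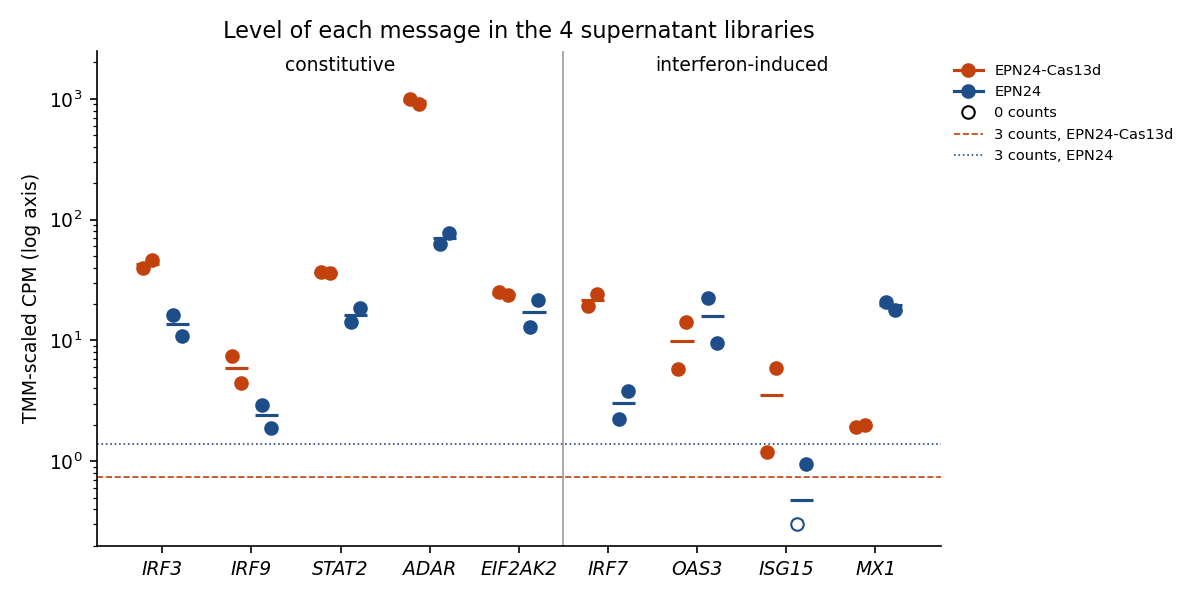
Level of each message in TMM-scaled CPM (log axis), EPN24-Cas13d on the left and EPN24 on the right of each name; each point is 1 library and each bar a group mean. The open circle marks the EPN24 library with 0 ISG15 counts, drawn at an arbitrary height, and horizontal lines give the CPM of 3 counts, averaged over the libraries of a group. ADAR stands at 988 and 913 CPM in EPN24-Cas13d, far above the other 8 messages, and MX1 is the one message with both EPN24-Cas13d libraries below both EPN24 libraries.

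ADAR, the adenosine deaminase that edits double-stranded RNA (ENSG00000160710.18, chromosome 1, 154581695 to 154628013, minus strand), had 988 and 913 CPM in the EPN24-Cas13d libraries and 62.9 and 77.2 CPM in the EPN24 libraries. The groups lay far apart, and both replicate pairs were close. The log2 fold change was 3.76 with an approximate SE of 0.13 (adjusted p = 6.14e-12, edgeR). It was larger than that of 95.1% of tested genes, and of 98.6% with the trend on transcript GC content removed. Per 10000 ERCC counts ADAR had 459 and 442 counts in EPN24-Cas13d against 3.17 and 3.24 in EPN24, a 141-fold difference against the 14.7-fold difference of all gene counts. The gene makes a shorter constitutive protein and a longer interferon-induced one from different promoters, and gene counts do not separate their messages.

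IRF3, the constitutive transcription factor that sensors activate by phosphorylation (ENSG00000126456.16, chromosome 19, 49659569 to 49665875, minus strand), had 39.5 and 46.7 CPM in EPN24-Cas13d and 16.3 and 10.9 CPM in EPN24. Both EPN24-Cas13d libraries were above both EPN24 libraries, as for 7 of the 9 messages counted here; 91.2% of tested genes had groups that did not overlap in one direction or the other. Its log2 fold change was 1.67, SE 0.28 (adjusted p = 0.000113, edgeR). This value fell to 0.83 with the GC trend removed, 0.81 under a stricter filter, 1.03 with sparse-gene density subtracted and 1.09 with total-count scaling, and passed the threshold in each. BCL2L12 overlaps 19.3% of the exon length of IRF3 on the opposite strand, with 188.5 and 226 counts in EPN24-Cas13d against 41.5 and 36 in EPN24; the strand setting of the counting is not given in the sources used here, so some IRF3 counts may belong to it.

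STAT2, the ISGF3 subunit that carries the activation domain (ENSG00000170581.14, chromosome 12, 56341597 to 56360167, minus strand), had 36.5 and 36.2 CPM in EPN24-Cas13d and 14.3 and 18.5 CPM in EPN24. The EPN24-Cas13d libraries were nearly equal and above both EPN24 libraries. The log2 fold change was 1.15, SE 0.27 (adjusted p = 0.00128, edgeR). The call was lost under the stricter filter (0.30, adjusted p = 0.305), with sparse-gene density subtracted (0.66, adjusted p = 0.096) and with total-count scaling (0.59, adjusted p = 0.0557).

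IRF9, the DNA-binding subunit of ISGF3 (ENSG00000213928.9, chromosome 14, 24161265 to 24166565, plus strand), was a rare message in both groups, with 7.45 and 4.40 CPM in EPN24-Cas13d and 2.90 and 1.89 CPM in EPN24. The groups did not overlap, but they rest on 31 and 17.5 counts in EPN24-Cas13d against 6.5 and 4 in EPN24, and IRF9 met the low-count filter in EPN24-Cas13d only. The log2 fold change was 1.37, SE 0.68, and did not pass (adjusted p = 0.0775, edgeR). It passed without a filter (1.73, adjusted p = 0.0462) and with sparse-gene density subtracted, where the EPN24 counts lay near 0 and the fitted value of 6.91 depends on the prior count. An unnamed annotated gene on the same strand, ENSG00000259529, shares 42.2% of the exon length of IRF9 and had 449.5 and 430.5 counts in EPN24-Cas13d against 32.5 and 28 in EPN24, so the division of reads between these genes is uncertain.

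EIF2AK2, the kinase PKR that phosphorylates the translation factor eIF2 on binding double-stranded RNA (ENSG00000055332.19, chromosome 2, 37099210 to 37157522, minus strand), had 25.0 and 23.9 CPM in EPN24-Cas13d and 12.9 and 21.8 CPM in EPN24. The EPN24-Cas13d libraries were just above the higher of the EPN24 libraries. The log2 fold change of 0.50, SE 0.31, did not pass (adjusted p = 0.147, edgeR), and its sign turned with total-count scaling (-0.061) and the stricter filter (-0.36), neither called. EIF2AK2 had the lowest GC content of the 9, 38.7% of its longest transcript. With the GC trend removed it was called higher (2.60, adjusted p = 1.46e-06), as it was without a filter (0.86, adjusted p = 0.0201) and without EPN24 replicate 2 (0.93, adjusted p = 0.0192).

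IRF7, the interferon-induced factor that amplifies type I interferon production (ENSG00000185507.21, chromosome 11, 612553 to 615983, minus strand), had 19.2 and 24.2 CPM in EPN24-Cas13d and 2.23 and 3.79 CPM in EPN24. The groups did not overlap, although the EPN24 values come from 5 and 8 counts, and IRF7 met the low-count filter in EPN24-Cas13d only. The log2 fold change was 2.84, SE 0.44 (adjusted p = 5.43e-05, edgeR), and that of 87.8% of tested genes was lower. IRF7 had the highest GC content of the 9, 66.8% of its longest transcript. With the GC trend removed the value was 1.10 (adjusted p = 0.0437), above 67.8% of tested genes.

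ISG15, the ubiquitin-like protein that interferon-induced enzymes attach to other proteins (ENSG00000187608.10, chromosome 1, 1001138 to 1014540, plus strand), was at the edge of detection. It had 5 and 23.5 counts in EPN24-Cas13d and 0 and 2 counts in EPN24, that is 1.20 and 5.92 CPM against 0 and 0.947 CPM. The EPN24-Cas13d replicates differed more from each other than the lower one did from EPN24. The summed counts gave a log2 ratio of 2.91 with a 95% exact binomial interval of 0.92 to 6.02. This interval covers counting error at most, and is too narrow for it if both mates of a read pair were counted. Without a filter the fitted log2 fold change was 3.19, SE 1.21 (adjusted p = 0.0262, edgeR).

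OAS3, an oligoadenylate synthetase (ENSG00000111331.14, chromosome 12, 112938051 to 112976460, plus strand), had 5.77 and 14.1 CPM in EPN24-Cas13d and 22.3 and 9.47 CPM in EPN24. The groups overlapped, and the replicates of each group differed by more than the group means did. Its log2 fold change of -0.69, SE 0.48, did not pass (adjusted p = 0.198, edgeR). OAS3 was called lower without EPN24-Cas13d replicate 2 (-1.46, adjusted p = 0.0272), with total-count scaling (-1.28), under the stricter filter (-1.55) and with counts halved (-1.10), and its sign turned without EPN24 replicate 1 (0.085, not called) and with sparse-gene density subtracted (0.27, not called). No direction that holds across these settings can be given for this message's share.

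MX1, the dynamin-like antiviral GTPase (ENSG00000157601.15, chromosome 21, 41420020 to 41470071, plus strand), had 1.92 and 2.01 CPM in EPN24-Cas13d and 21.0 and 18.0 CPM in EPN24. It was the one message of the 9 called lower, with 8 and 8 counts in EPN24-Cas13d against 47 and 38 in EPN24, and it met the low-count filter in EPN24 only. The log2 fold change was -3.28, SE 0.47 (adjusted p = 2.32e-05, edgeR), and that of 24.7% of tested genes was lower still. Per volume the groups overlapped: MX1 had 0.893 and 0.975 counts per 10000 ERCC counts in EPN24-Cas13d against 1.06 and 0.756 in EPN24. TMPRSS2 overlaps 3.13% of the MX1 exon length on the opposite strand, with 2 and 6 counts in EPN24-Cas13d against 22 and 17 in EPN24.

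Per volume of supernatant the fold changes kept the order they had by share, but all were shifted upward. Scaled to ERCC totals, the log2 fold change was 7.13 for ADAR, 6.19 for IRF7, 5.02 for IRF3, 4.68 for IRF9, 4.52 for STAT2, 3.87 for EIF2AK2 and 2.64 for OAS3. All 7 were called higher, with adjusted p between 9.54e-12 and 9.54e-04 by edgeR, among 60.7% of tested genes called at that scaling, 58.4% higher and 2.33% lower. OAS3, with no direction by share, was called higher by volume. MX1 had 0.045, SE 0.54 (adjusted p = 0.949), so it was called lower by share and was not called by volume. The authors' deposited table, for which no scaling is stated in the sources used here, gave log2 fold changes close to these: 7.10 for ADAR, 6.22 for IRF7, 4.98 for IRF3, 4.70 for IRF9, 4.50 for STAT2, 3.86 for EIF2AK2, 2.58 for OAS3 and 0.00090 for MX1. The same deposited table gave ISG15 a log2 fold change of 6.36 with an adjusted p of 1.79e-05.

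**Figure D2:**
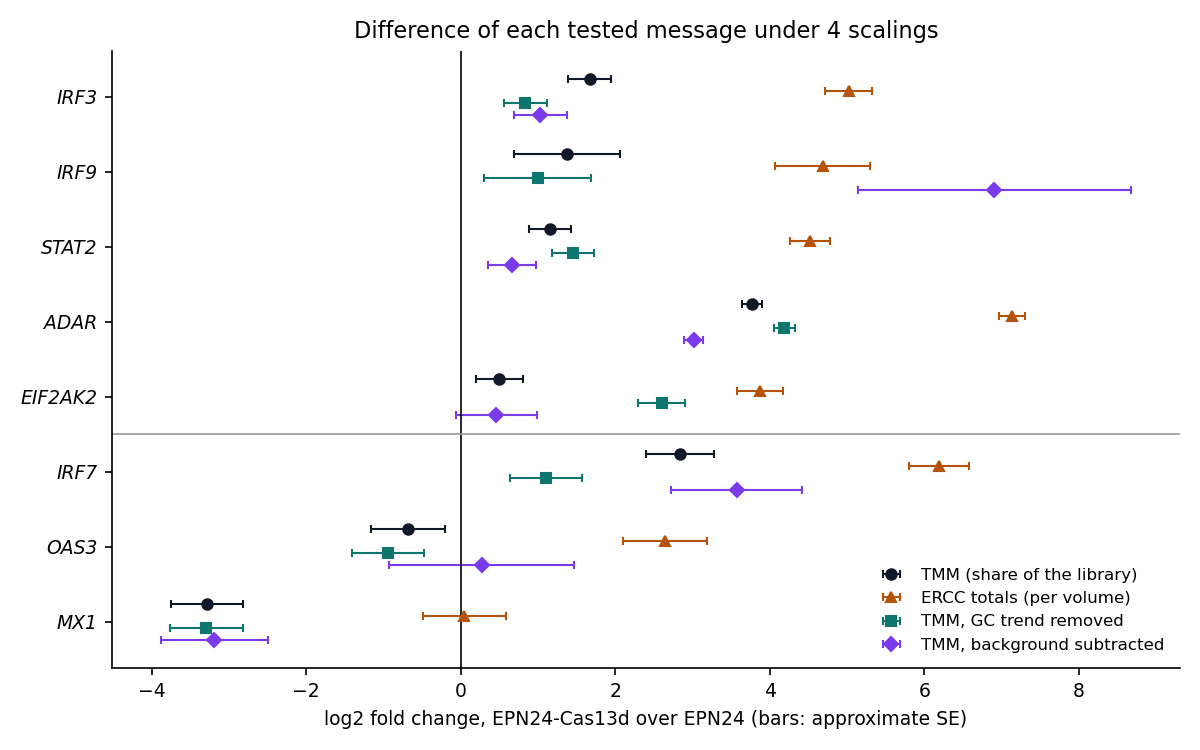
log2 fold change of EPN24-Cas13d over EPN24 for the 8 tested messages, with bars of 1 approximate SE, constitutive messages above the grey line and interferon-induced ones below it. Circles give TMM scaling, triangles ERCC totals, squares TMM with the GC trend removed and diamonds TMM after subtraction of the olfactory receptor density. ADAR is positive under all 4, from 3.01 to 7.13, and MX1 moves from -3.28 with TMM to 0.045 with ERCC totals.

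Read density showed how much of each value lay above a sparse-gene level. The level was taken from 361 olfactory receptor genes, which work mainly in the nose. They had 0.160 ± 0.0268 counts per kb in EPN24-Cas13d and 1.64 ± 0.287 in EPN24 (SD, n = 2 each). Over the deposited exon length, the density of ADAR was 1973 times this level in EPN24-Cas13d and 7.56 times in EPN24. IRF3 stood at 288 and 4.78 times (EPN24-Cas13d and EPN24), IRF7 at 210 and 1.52 times, STAT2 at 149 and 3.49 times, ISG15 at 103 and 0.702 times, EIF2AK2 at 56.3 and 2.07 times, IRF9 at 42.3 and 0.893 times and OAS3 at 13.8 and 1.18 times. MX1 had the smallest gap, 2.78 times in EPN24-Cas13d and 1.44 times in EPN24. In EPN24 the 4 interferon-induced messages and IRF9 thus lay below or within 1.52 times the olfactory receptor level. Over these lengths their EPN24 counts lay near the level of such sparse reads, and no test compared them with it.

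This depends on the length used for MX1 and OAS3. Their deposited exon lengths, 17984 and 18045 bp, sum all annotated exons, while their longest GENCODE transcripts measure 3470 and 6719 bases. With transcript lengths, a choice made once the exon lengths were known, MX1 stood at 14.2 and 7.33 times and OAS3 at 36.5 and 3.12 times the olfactory receptor level in EPN24-Cas13d and EPN24. The other 7 messages kept densities between 60.8 and 3339 times in EPN24-Cas13d and between 0.761 and 12.8 times in EPN24.

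**Figure D3:**
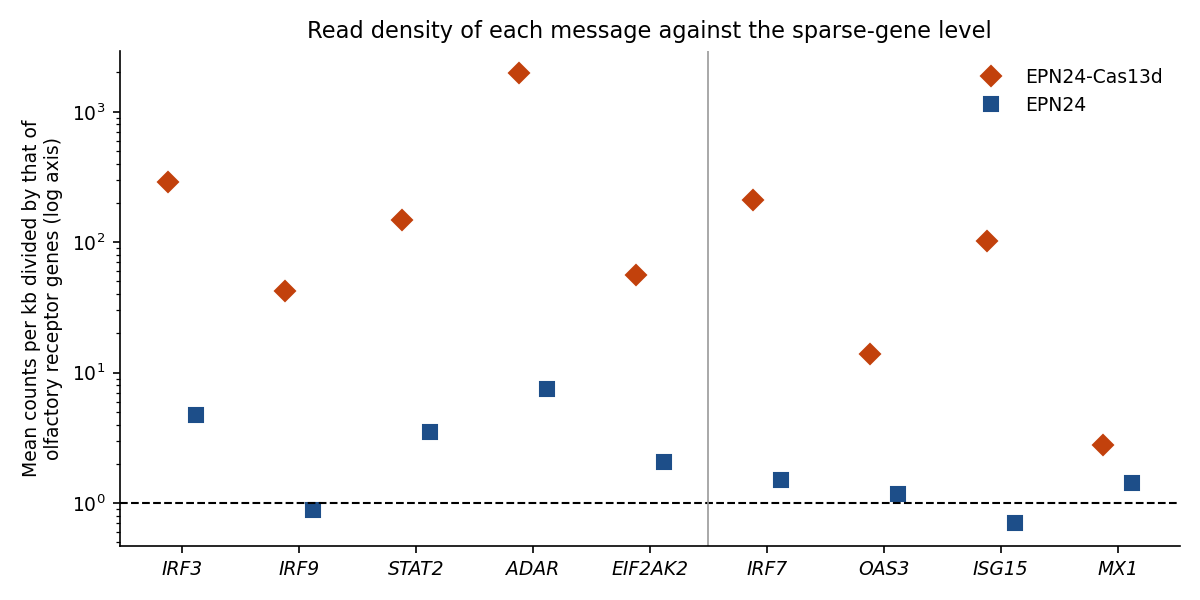
Mean counts per kb of deposited exon length of each message divided by the mean counts per kb of 361 olfactory receptor genes in the same group (log axis); diamonds are EPN24-Cas13d and squares EPN24, and the dashed line marks an equal density. In EPN24-Cas13d the values run from 2.78 times for MX1 to 1973 times for ADAR, and in EPN24 from 0.702 times for ISG15 to 7.56 times for ADAR.

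Levels between messages were compared per kb of exon length. In EPN24-Cas13d the order of mean CPM per kb was ADAR (77.6), IRF3 (11.4), IRF7 (8.31), STAT2 (5.87), ISG15 (4.10), EIF2AK2 (2.22), IRF9 (1.66), OAS3 (0.550) and MX1 (0.109). ISG15 overlapped STAT2, EIF2AK2 and IRF9 in its 2 libraries, and the other neighbours in this order did not overlap. In EPN24 the order was ADAR (5.72), IRF3 (3.58), STAT2 (2.64), EIF2AK2 (1.57), IRF7 (1.15), MX1 (1.08), OAS3 (0.880), IRF9 (0.669) and ISG15 (0.546), where IRF3 and STAT2 overlapped, as did all neighbours from EIF2AK2 down. With transcript lengths MX1 in EPN24 rose in that order to 5.61 CPM per kb, below ADAR at 9.85.

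Summed over the class, the 5 constitutive messages had 1096 and 1024 CPM in EPN24-Cas13d and 109 and 130 CPM in EPN24. Most of this was ADAR: without it the other 4 summed to 108.5 and 111 CPM in EPN24-Cas13d and 46.4 and 53.0 CPM in EPN24. The 4 interferon-induced messages summed to 28.1 and 46.2 CPM in EPN24-Cas13d and 45.5 and 32.2 CPM in EPN24, so the groups overlapped. Within this class the messages did not move as one, since IRF7 was higher and MX1 lower. Of the 4 messages whose printed promoter stretch holds the motif, MX1 was lower, OAS3 and EIF2AK2 were not called and ISG15 was not tested.

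The wider pathway was described by 11 lists from general knowledge, holding 166 genes of the table and including the 9 messages. Counts below are by share. Many lower calls were of genes that met the low-count filter in EPN24 only, as were 8398 of 9871 among all tested genes. These were 6 of 7 in RIG-I-like receptor signalling, 3 of 3 in the endosomal Toll-like list and 2 of 2 in DNA sensing. They were 3 of 4 in the OAS system, 6 of 8 in receptors and JAK-STAT and 4 of 5 among the regulatory factors. PKR and its partners had 0 of 6, and editing and binding 2 of 7. IFI16, OAS1, IRF4 and IFNL1 below were also tested through EPN24 alone. With ERCC totals few genes of any list were lower: 11 higher and 1 lower in RIG-I-like receptor signalling, 6 and 0 in the endosomal Toll-like list, 2 and 0 in DNA sensing, 17 and 0 in double-stranded RNA editing and binding, 13 and 0 for PKR and its partners, 4 and 0 in the OAS system, 17 and 1 in receptors and JAK-STAT, 5 and 1 among the regulatory factors and 3 and 0 in ISG15 conjugation. Sensors and their signalling partners went both ways by share. Of 18 genes of RIG-I-like receptor signalling, 17 were tested, 8 were higher, 7 lower and 2 not called (median log2 fold change 0.030, where that of the 20476 genes was -0.96). MAVS, the mitochondrial adaptor, had 406 ± 27.2 CPM in EPN24-Cas13d and 25.8 ± 4.99 CPM in EPN24 (SD, n = 2 each), a log2 fold change of 3.98, and NLRX1, a mitochondrial regulator of this pathway, had 4.46. The receptors themselves, chosen after their values were seen, were at a few counts: DDX58 (RIG-I) had 7 and 5 counts in EPN24-Cas13d against 27.5 and 20.5 in EPN24, and was lower (-2.87, or 0.44 and not called with ERCC totals). DHX58 (LGP2) had 1 and 10 counts in EPN24-Cas13d against 19 and 21 in EPN24, and was lower (-2.72, or 0.62 and not called with ERCC totals). IFIH1 (MDA5) had 0 and 2 counts in EPN24-Cas13d against 4 and 14 in EPN24 and was not tested; without a filter it was called lower (-3.55, adjusted p = 0.0271, edgeR). DDX58 and DHX58 met the low-count filter in EPN24 only. With the GC trend removed 4 of this list were lower in place of 7.

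Of 10 genes of the endosomal Toll-like receptor list, 9 were tested, 4 higher, 3 lower and 2 not called (median 0.65). IRAK1, a kinase downstream of these receptors, had 1054 ± 6.59 CPM in EPN24-Cas13d and 55.2 ± 16.3 CPM in EPN24 (log2 fold change 4.26), and CNPY3, a chaperone of Toll-like receptors, had 2.36. The 3 lower calls were all lost without EPN24 replicate 1 or without EPN24 replicate 2. Cytosolic DNA sensing had 6 genes and 4 tested, with 1 higher, 2 lower and 1 not called (median -1.45). SAMHD1, which degrades deoxynucleotides, was higher (1.31, but 0.45 and not called under the stricter filter). IFI16, a DNA-binding sensor, had 0 counts in both EPN24-Cas13d libraries against 14 and 12 in EPN24. By share it was at least 8.08-fold lower against a floor of 3 counts per library, or 7.7-fold by EPN24 replicate 2 alone. In EPN24 IFI16 lay at 1.5 times the olfactory receptor level, and it was not called with ERCC totals (-5.97). Without EPN24 replicate 1 and replicate 2, 0 and 1 of that list were lower.

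The messages of proteins that touch double-stranded RNA were divided as well. Of 19 genes for editing and binding proteins, 8 were higher and 7 lower, and 4 did not pass (median 0.039). Besides ADAR, DGCR8, the partner of DROSHA in miRNA processing, was higher, with a log2 fold change of 2.41. Without EPN24-Cas13d replicate 1, 5 of this list were higher. Under the stricter filter 4 were higher, and with the GC trend removed 2 were lower. Of 13 genes of PKR and its eIF2 partners 3 were higher, 6 lower and 4 not called (median -0.18). EIF2B2 (2.22) and EIF2B5 (2.41), subunits of the exchange factor for eIF2, were higher, and with the GC trend removed 7 were higher and 2 lower. In the 7 genes of the OAS and RNase L system 1 was higher, 4 lower and 2 not called (median -2.13). OAS1 had 2 and 1 counts in EPN24-Cas13d against 24 and 20 in EPN24 (-4.63, or -1.40 and not called with ERCC totals), and PDE12, which degrades oligoadenylates, was higher (1.42, but 0.56 and not called under the stricter filter). With sparse-gene density subtracted 1 of this list was lower.

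Interferon receptors and their signalling went both ways. Of 25 genes of interferon receptors and JAK-STAT, 24 were tested, 12 were higher, 8 lower and 4 not called (median 0.45). IFNLR1, a chain of the type III interferon receptor, had 123 ± 6.78 CPM in EPN24-Cas13d and 5.06 ± 0.213 CPM in EPN24 (log2 fold change 4.60). TYK2, a receptor kinase, had 258 ± 3.79 CPM in EPN24-Cas13d and 32.7 ± 6.09 CPM in EPN24 (2.97). With total-count scaling 7 of this list were higher and 8 lower, and with the stricter filter 7 were higher and 7 lower. Among the 9 interferon regulatory factors 2 were higher (IRF3 and IRF7), 5 lower and 2 not called (median -1.25). IRF4, a factor of lymphocytes, had 0 counts in EPN24-Cas13d against 45 and 14 in EPN24, at least 18.1-fold lower by share against the floor, or at least 8.98-fold by EPN24 replicate 2 alone. Without EPN24 replicate 1, 1 of these factors was lower in place of 5. All the calls of this paragraph and the 3 before it are by edgeR's quasi-likelihood test. With TMM scaling and the low-count filter, the named genes that were called had adjusted p from 6.14e-12 (ADAR) to 0.00574 (DHX58).

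Interferon-induced effectors were sparse, and many of them were tested through their EPN24 counts alone. Of 47 genes 35 were tested, with 5 higher, 24 lower and 6 not called (median -2.975, or -2.79 with genes at 0 set to their bound). Across the list, 14 genes had 0 counts in both EPN24-Cas13d libraries and 0 genes had none in EPN24. The median density was 2.83 times the olfactory receptor level in EPN24-Cas13d and 1.38 times in EPN24, where that of all tested genes was 33.1 and 2.98 times. Of the 24 lower calls, 23 were of genes that met the low-count filter in EPN24 only, as were 8398 of the 9871 lower calls among all tested genes. Of genes tested through EPN24 alone, 23 of 26 in the list were lower, and 8398 of 9304 among all tested genes. Whether the list stands apart was not tested. Without a filter 6 of 47 were higher and 24 lower (median -2.62, where that of all genes was -2.55). Of all 49197 genes in that fit, 7326 were higher and 11046 lower. The lower calls were 10 of 17 tested with counts halved, 8 of 13 under the stricter filter and 4 of 14 with sparse-gene density subtracted. Among all tested genes they were 6970 of 15289, 4889 of 11735 and 5744 of 15666 in the same order. Without EPN24 replicate 1 the list median was -3.15, and without EPN24 replicate 2 it was -2.99. That of all tested genes was -0.91 in both. With ERCC totals 11 were higher, 1 lower and 23 not called (median 0.27, against 2.38 for all tested genes). The higher ones include CNP, a phosphodiesterase, with 506 ± 13.7 CPM in EPN24-Cas13d and 31.3 ± 10.6 CPM in EPN24 (log2 fold change 4.01, adjusted p = 3.85e-11), and LY6E, a membrane-anchored protein, with 156 ± 10.3 CPM in EPN24-Cas13d and 11.6 ± 3.74 CPM in EPN24 (3.76, adjusted p = 1.42e-09, edgeR for both).

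Of 6 genes of ISG15 conjugation 4 were tested, with 2 higher, 1 lower and 1 not called (median 0.73). HERC5, the main ISG15 ligase, had 84 and 59 counts in EPN24-Cas13d against 8 and 9 in EPN24 (log2 fold change 2.16, adjusted p = 5.00e-04), and USP18, which removes ISG15, had 99 and 92 counts in EPN24-Cas13d against 16 and 16 in EPN24 (1.67, adjusted p = 5.22e-04, edgeR for both). The 1 lower call was lost without EPN24-Cas13d replicate 1, EPN24 replicate 1 or EPN24 replicate 2. Of 14 interferon ligand genes 1 was tested. IFNL1 had 0 counts in EPN24-Cas13d against 17 and 14 in EPN24, at least 9.63-fold lower by share against the floor. The 14 ligand genes together had 8 and 2 counts in EPN24-Cas13d against 49 and 36 in EPN24, and IFNB1 and IFNG, chosen after their values were seen, had none in any library.

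**Figure D4:**
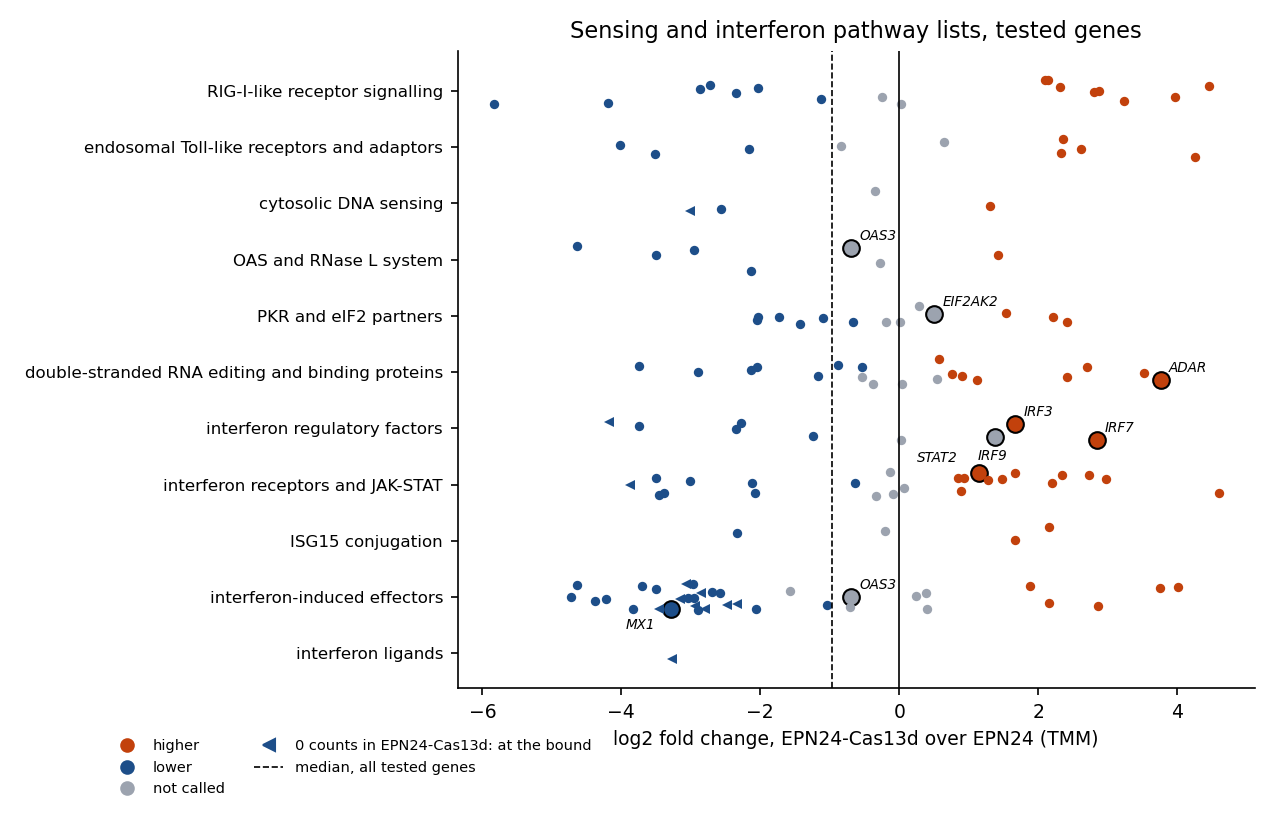
log2 fold change (TMM) of each tested gene of the 11 lists; the 9 messages followed here are named and outlined where tested, and a gene can stand in more than 1 list. Triangles mark genes with 0 counts in both EPN24-Cas13d libraries, drawn at their bound against a floor of 3 counts per library, and the dashed line is the median of all tested genes, -0.96. Most tested interferon-induced effectors, MX1 among them, lie left of that line, while receptors and JAK-STAT genes lie on both sides.

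For each tested message, the list gene with the most similar profile was found by Euclidean distance of centred log2 CPM over the 4 libraries, among 134 candidates. MX1 was nearest to IFIT2 (distance 0.063, where the median candidate was at 2.50), IRF9 to SOCS3 (0.189), ADAR to MAVS (0.206), IRF7 to TARBP2 (0.255), STAT2 to SAMHD1 (0.288), IRF3 to PDE12 (0.318), EIF2AK2 to DUS2 (0.320) and OAS3 to TRIM5 (0.723). IFIT2 had 0 counts in both EPN24-Cas13d libraries and 10 and 8 in EPN24, so its centred profile there rests on the prior count. With 4 libraries in 2 groups, such a distance mostly compares fold changes.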

How the data were processed

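Per the labels' protocols, supernatant was spun, passed through a 0.45 µm filter, mixed with ERCC RNA, and made into libraries with 17 PCR cycles and no molecular identifiers named. Per the submitters' processing notes, which give no order, the build was hg38 and the tools were DESeq2 1.36.0, featureCounts 2.0.1, STAR 2.7.10a, Trim Galore 0.6.7 and FastQC 0.11.9. The authors deposited expected counts per gene (counts with fractions, 7.83% to 9.20% of values not whole, unscaled). Of the whole values above 0, 66.8% to 72.4% were even, as when both mates are counted. The authors' own comparison, also deposited, gives the DESeq2 mean normalized count (signal), log2 fold change with SE, Wald score and p-values. The deposited exon length is in bp.

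Here 5 pieces of 1 broken row were left out and 61543 genes rounded and tested with edgeR 4.0.16 in R 4.3.3 (filterByExpr, TMM without the 92 ERCC rows, robust quasi-likelihood, threshold 0.05). SEs of fold changes are approximate, taken as the log2 value without its sign divided by the square root of F, and ± values are SDs. Genes were named as the 9 messages, the 2 smallest p-values of each list outside them, and the nearest profile of each; others are said to be chosen later, and a few genes the rule named are not reported here. Alternatives were DESeq2 1.42.0 size factors and Wald test, limma 3.58.1 voom, total counts, ERCC totals, no filter, a filter of 10 counts and 10 CPM in 2 libraries, a replicate block, each library left out, counts halved, the olfactory receptor density subtracted (361 genes), and a GC trend removed (spline with 6 degrees of freedom on the longest GENCODE transcript, known for 97.3% of tested genes). The test was also run on simulated data, in which 200 of 20476 genes were altered. At a planted 4-fold difference 59% were found, at a 2-fold difference 26%, and 3 calls were false. A message that was not called may therefore still differ between the groups. In the real data 80.9% of tested genes were called, so the simulation does not cover differences this widespread. The messages, lists and tests were chosen with earlier results of these data known. Replicates of a group differed beyond counting noise, with chi-square values of 2.39 (EPN24-Cas13d) and 3.39 (EPN24) for each degree of freedom, or 1.20 and 1.69 with counts halved.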

Additional observations from a re-analysis of the deposited data

How the results depend on the processing

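ADAR, IRF3, IRF7 and MX1 kept their calls by edgeR under every alternative that scales by share, ADAR between 2.91 and 4.19 and MX1 between -4.14 and -2.93. With ERCC totals MX1 was at 0.045 and OAS3 at 2.64, IRF9 (4.68) and EIF2AK2 (3.87) were called, and 11960 genes were higher and 477 lower in place of 6685 and 9871. Lower calls numbered 4889 under the stricter filter and 5744 with density subtracted. STAT2 lost its call with total counts (0.59), the stricter filter (0.30) and density subtracted (0.66). OAS3 was called with total counts (-1.28), the stricter filter (-1.55) and counts halved (-1.10). IRF9 was called without a filter (1.73) and with density subtracted (6.91), and EIF2AK2 without a filter (0.86) and with the GC trend removed (2.60). Leaving out each library gave 5359 to 9302 lower calls, -1.46 to 0.085 for OAS3, called at -1.46, and 0.19 to 0.93 for EIF2AK2, called at 0.93. The lone library of a group is then assumed to vary like the other group. IRF9 was not tested with counts halved or the stricter filter. Libraries with the same replicate number did not deviate together over the tested genes (correlation -0.0041). Whether they shared handling was not tested. A replicate block gave 6545 higher and 8496 lower calls and changed no call of the 8 messages. Depth limits the EPN24 values of ISG15, IRF9 and IRF7 and the EPN24-Cas13d values of MX1, at 0 to 8 counts. The causes of these changes were not tested.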
